A study of Sus scrofa with 8 samples.

Results

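The genes that make fatty acids were compared between 2 Portuguese pig breeds, Alentejano (AL, 4 pigs) and Bísaro (BI, 4 pigs), in 1 RNA library of dorsal subcutaneous fat per animal. The set comprised 6 genes, ACLY, ME1, FASN, ELOVL6, SCD and THRSP, each found by its gene name among the 458 genes for which the authors deposited a value per pig, out of 10710 genes that they list with a mean. The animals were castrates of pure breed with outdoor access and unrestricted compound feed, and the labels give a carcass weight of 150 kg for each. The paper instead gives about 150 kg as the body weight at slaughter. The pigs are AL44, AL49, AL52 and AL63, and BI25, BI34, BI36 and BI37, numbered as in the labels, and breed is the only factor by which they are grouped. The AL pigs had been longer on trial than the BI pigs, which cannot be told apart from breed.

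Fatty acids are built in the cytosol from acetyl-CoA, which ACLY (ATP citrate lyase) releases from citrate exported by the mitochondria. ME1 (cytosolic malic enzyme) turns malate into pyruvate and yields NADPH, the reducing power that FASN (fatty acid synthase) spends as it builds palmitate. ELOVL6 lengthens palmitate to stearate, and SCD (stearoyl-CoA desaturase) puts a double bond into both to give palmitoleate and oleate, the main monounsaturated fatty acids of pig fat. THRSP (thyroid hormone responsive protein, Spot 14) is no enzyme of the chain but a small protein abundant in lipogenic tissues and induced by thyroid hormone and carbohydrate feeding. In animals with high rates of lipogenesis these genes are known to be transcribed together under SREBP-1c, ChREBP and the liver X receptor, and in the pig the adipose tissue is the main site of the pathway.

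All 6 genes had a higher mean in AL, by 2.34-fold (ELOVL6) to 4.96-fold (SCD) between the breed means, and every AL pig exceeded every BI pig in 5 of them, ACLY being the exception. The breeds likewise did not overlap in 364 of the 458 genes (79.5%), AL being the higher breed in 48.3% of the genes and BI in 31.2%, so that the count alone does not set the 6 genes apart. Their median log2 fold change (log2 FC, mean log2(normalized count + 1) in AL minus BI) was 1.91, against 1.09 over the 263 genes higher in AL. Within BI, the 6 genes ranked the pigs alike, with BI36 the highest and BI37 next in each of them, whereas in AL no single order was shared. The 458 genes had been chosen by the authors for a difference between the breeds in these same animals, so the tests below describe how far the pigs lie apart and are not independent evidence of a breed difference. In whole tissue, fewer fat cells and less RNA per fat cell cannot be told apart.

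A CCAAT box holds the site letters of the factor NF-Y, which often stand beside sterol regulatory elements. Any link between such a box and the order of the pigs was not tested. The sequences before the annotated starts are shown for the 4 of the 6 genes whose last 250 bases upstream hold a CCAAT box. They were read from Sscrofa11.1 on the plus strand, 5′ to 3′, from chr12:20796428-20796677 (ACLY), chr8:112038420-112038669 (ELOVL6), chr14:111461310-111461559 (SCD) and chr9:12479663-12479912 (THRSP), with the gene start of the RefSeq annotation following the last base. Capitals mark CCAAT or its reverse complement ATTGG, and the GC box GGGCGG or its reverse complement CCGCCC, none of which overlapped another.
ACLY: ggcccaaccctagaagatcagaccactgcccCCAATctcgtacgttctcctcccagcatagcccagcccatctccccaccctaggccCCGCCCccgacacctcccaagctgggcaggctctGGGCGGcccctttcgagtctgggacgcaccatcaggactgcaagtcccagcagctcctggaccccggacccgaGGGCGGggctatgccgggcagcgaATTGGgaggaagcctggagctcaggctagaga
ELOVL6: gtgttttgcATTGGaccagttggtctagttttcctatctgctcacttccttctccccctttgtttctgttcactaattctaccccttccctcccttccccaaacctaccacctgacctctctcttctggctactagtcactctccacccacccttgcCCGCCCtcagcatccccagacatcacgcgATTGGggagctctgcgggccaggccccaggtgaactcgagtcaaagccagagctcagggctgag
SCD: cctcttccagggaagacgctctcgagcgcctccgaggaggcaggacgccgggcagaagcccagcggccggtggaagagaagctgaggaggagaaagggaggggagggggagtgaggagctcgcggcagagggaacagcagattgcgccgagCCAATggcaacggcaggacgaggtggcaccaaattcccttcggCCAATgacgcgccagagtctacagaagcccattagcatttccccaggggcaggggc
THRSP: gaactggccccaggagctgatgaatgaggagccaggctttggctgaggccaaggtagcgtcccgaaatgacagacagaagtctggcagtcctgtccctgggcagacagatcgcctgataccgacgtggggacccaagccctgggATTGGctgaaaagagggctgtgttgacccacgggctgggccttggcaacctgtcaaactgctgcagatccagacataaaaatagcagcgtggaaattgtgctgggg
ACLY, ELOVL6 and SCD each had 2 CCAAT matches and THRSP had 1, while the windows of ME1 and FASN had none. Across all 19556 upstream windows of the same length in the annotation, 31.9% held a CCAAT match. The match nearest the start stood 32 to 28 bases before it in ACLY, 56 to 52 in SCD, 64 to 60 in ELOVL6 and 106 to 102 in THRSP. A GC box was found for ACLY (3 matches), ME1 (2) and ELOVL6 (1), against 45.9% of all windows. No match to the E-box CACGTG (6.39% of windows), to the sterol regulatory element letters TCACNCCAC (0.803%) or to the TATA box letters TATAAA (9.77%) was found in any of the 6 windows on either strand. The windows start from the annotated gene start and say nothing of factors bound elsewhere. The FASN window was the richest in G and C, with 73.2%, against a median of 57.6% over all windows and 56.0% for ELOVL6.

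The values per pig are normalized counts, the reads counted on a gene divided by the size factor that DESeq2 had given the pig. ACLY (ENSSSCG00000017421, chr12:20796678-20841301, plus strand, 32 merged exons) supplies the acetyl-CoA. It had 35.6, 94.3, 92.5 and 91.6 normalized counts in AL44, AL49, AL52 and AL63, and 11.5, 11.0, 49.1 and 16.7 in BI25, BI34, BI36 and BI37. A pig of each breed stood apart from its 3 breed mates, the low AL44 and the high BI36, and they crossed each other. The log2 FC of 1.96 (SE 0.59, n = 4 per breed) missed the threshold of a two-sided exact permutation test on all 70 ways to split the 8 animals (p = 0.057, adjusted over the 458 genes 0.060). As AL44 and BI36 were the only pigs that crossed, leaving out either one necessarily removed the overlap. Limma over the 458 genes called the difference (adjusted p = 0.0056), but it called 262 of them higher in AL and 193 higher in BI, so the call does not set ACLY apart.

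ME1 (ENSSSCG00000004454, chr1:82799878-82989895, plus strand, 14 merged exons), the NADPH source among the 6 genes, had normalized counts of 44.4, 68.9, 68.8 and 70.4 in AL, in the same order of pigs, and of 10.7, 11.7, 25.5 and 12.5 in BI. The same AL44 and BI36 were again the low and the high pig of their breeds, but here they did not cross. The mean was 63.1 ± 12.5 for AL (SD, n = 4) and 15.1 ± 6.98 for BI (SD, n = 4), and the log2 FC was 2.05 (SE 0.31, exact permutation test, two-sided, p = 0.029, adjusted 0.036). This was the smallest standard error of the 6 genes. A p of 0.029 is the smallest that 4 pigs against 4 can give, and it is reached by every gene whose breeds do not overlap.

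FASN (ENSSSCG00000029944, chr12:922405-937560, plus strand, 43 merged exons) carries out all the steps from malonyl-CoA to palmitate on a single polypeptide. Its normalized counts were 4022, 6302, 8196 and 5067 in AL and 1092, 809, 3410 and 1996 in BI. AL44 was again the lowest AL pig and the one nearest to BI36, the highest BI pig, and the breeds did not overlap. The log2 FC was 1.86 (SE 0.51, exact permutation p = 0.029, adjusted 0.036).

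ELOVL6 (ENSSSCG00000036236, chr8:112038670-112190079, plus strand, 7 merged exons), the elongase of saturated 16-carbon chains, was the most even gene within AL, with 140.7, 127, 132.2 and 131.5 normalized counts. In BI it had 34.4, 37.8, 96.4 and 58.3. AL44, the lowest AL pig for 4 of the other genes, was the highest for this gene. The log2 FC of 1.33 (SE 0.34, exact permutation p = 0.029, adjusted 0.036) was the smallest of the 6.

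SCD (ENSSSCG00000010554, chr14:111461560-111478033, plus strand, 6 merged exons), the desaturase that acts on the products of FASN and ELOVL6, had 474, 545, 653 and 894 normalized counts in AL and 45.9, 38.5, 324 and 109 in BI. The BI pigs spread over 8.43-fold from lowest to highest, the widest range of any of the 6 genes in either breed, against 1.89-fold in AL. The log2 FC was 2.79 (SE 0.72, exact permutation p = 0.029, adjusted 0.036), the largest of the 6 genes and also the one with the largest standard error.

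THRSP (ENSSSCG00000033822, chr9:12479913-12484323, plus strand, 2 merged exons) had 194, 201, 216 and 135.5 normalized counts in AL and 65.0, 28.2, 104.9 and 68.3 in BI. Here AL63 and not AL44 was the lowest AL pig, and it still exceeded BI36. The means were 187 ± 35.4 (SD, n = 4) and 66.6 ± 31.3 (SD, n = 4), and the log2 FC was 1.59 (SE 0.42, exact permutation p = 0.029, adjusted 0.036). THRSP is the only gene of the 6 with an opposite-strand neighbour whose 3′ end lies near its own, NDUFC2 at a distance of 2165 bases, with no exon bases shared.

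**Figure D1:**
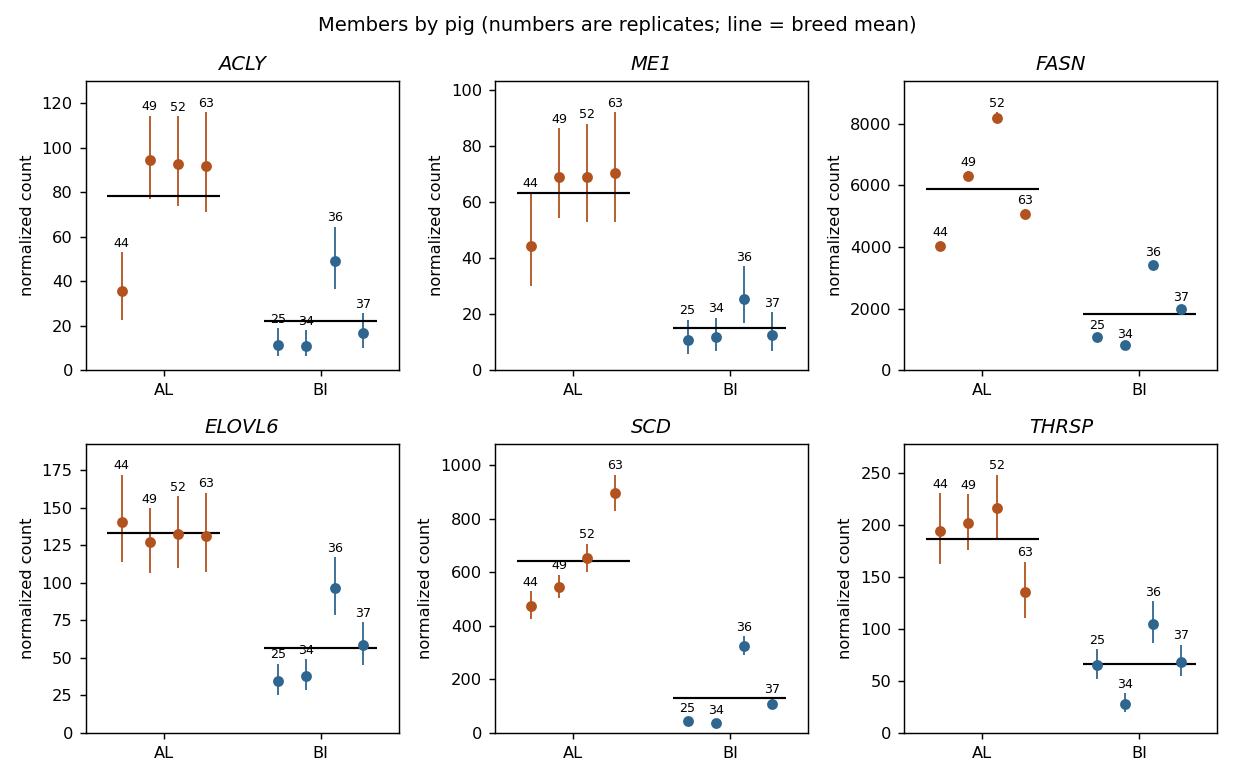
Normalized count of each of the 6 genes in each pig (points, with the replicate number), with exact 95% Poisson intervals of the reads counted (vertical lines, counting error only) and the mean of the 4 pigs of each breed (horizontal lines). The breeds overlap only for ACLY, where AL44 (35.6) lies under BI36 (49.1).

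The size of these differences depended on the scaling of the libraries. Rescaling the 458 genes by a median of ratios moved the median log2 FC of all of them by −0.51, and rescaling to a common upper quartile moved it by −0.65. Both use genes called different as the reference, so that part of the shift follows from their construction. The deposited values rest on size factors of 0.675 to 1.10 in AL and 1.06 to 1.46 in BI, whose part in the shift was not tested. Of the genes whose breeds did not overlap, the share higher in AL was 60.7% as deposited, 37.4% with the median of ratios and 25.4% with the upper quartile. All 6 log2 FC remained positive under both, but ME1 and SCD were the 2 genes whose breeds still did not overlap. The log2 FC with the median of ratios was 1.35 for FASN, 0.83 for ELOVL6 and 1.08 for THRSP.

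In the ratio of 2 genes within a pig the scaling cancels apart from the 1 added to each normalized count, and the ratios ask whether some steps differ more between the breeds than others. Each of the 15 pairs was compared by the log2 of its ratio of counts, and 1 of the 15 did not overlap between the breeds. Adjusted over the 15 pairs, the smallest p was 0.34 (exact permutation test), but with a smallest possible p of 0.029 an adjusted p under 0.05 would need at least 9 pairs without overlap, so a few separated ratios could not have passed. The largest difference was that of SCD to ELOVL6, with log2 ratios of 1.74, 2.09, 2.29 and 2.76 in AL and of 0.40, 0.03, 1.74 and 0.89 in BI. Desaturase thus stood higher against elongase in AL by 1.46 (SE 0.43, n = 4 per breed), but the breeds were separated by only 0.0057 between AL44 and BI36 (exact permutation p = 0.029, adjusted over 15 pairs 0.34). The ratio of SCD to THRSP differed by 1.2 (SE 0.54, exact permutation p = 0.11) and that of SCD to FASN by 0.93 (SE 0.36, p = 0.086 in the same exact test), both with overlapping breeds. ME1 and ACLY, the genes of NADPH and acetyl-CoA supply, showed the smallest difference together with ACLY and FASN, 0.10 for each (SE 0.29 and 0.28, exact permutation p = 0.8 and 0.69). Each of these differences equals that between the log2 FC of the 2 genes. As SCD had the largest log2 FC, all 5 ratios of SCD to another gene necessarily had a higher mean in AL. The breeds overlapped in 4 of them.

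**Figure D2:**
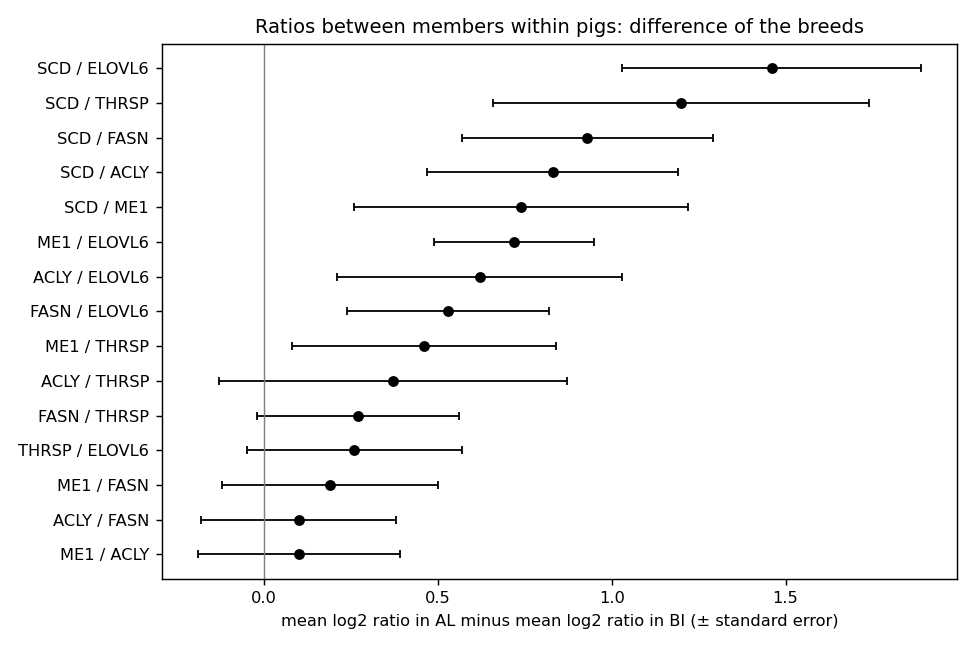
Difference between the breeds (mean of 4 AL pigs minus mean of 4 BI pigs) in the log2 ratio of each of the 15 pairs of genes within a pig, with its standard error (bars). The differences run from 0.10 to 1.46, the 5 ratios with SCD as numerator are the 5 largest, and the breeds do not overlap in that of SCD to ELOVL6 alone.

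The order of the pigs within BI was shared by all 6 genes down to the lower pair. BI36 was the highest BI pig in 6 of 6, against 19.2% of the 458 genes and 27.8% of the genes higher in AL. In each of the 6 genes BI37 came second, an order found in 13.3% of the 458 genes and 21.7% of those higher in AL, among which BI37 was the most frequent highest pig (59.7%). By counting error, BI37 and the next lower BI pig were apart only for FASN and SCD. The lowest pig was BI34 for ACLY, FASN, SCD and THRSP and BI25 for ME1 and ELOVL6. Of the 6 pairs that 4 pigs form, any 2 of the genes put 5 or 6 in the same order in BI, with a mean of 5.47 over the 15 gene pairs. The mean was 3.20 over all pairs of the 458 genes and 4.05 over pairs of genes higher in AL, and 23.9% and 43.7% of these pairs reached 5 or 6. The counts for the 6 genes restate the order above, since with BI36 first and BI37 second only BI25 against BI34 was free.

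No such order was seen in AL. There, 2 of the genes put 1 to 5 of the 6 pig pairs in the same order, with a mean of 3.13, against 3.06 over all gene pairs, and 20% of the 15 pairs reached 5 or 6, against 18.8% of all gene pairs. AL44 was the lowest pig for ACLY, ME1, FASN and SCD, AL49 for ELOVL6 and AL63 for THRSP. The highest pig was AL49 for ACLY, AL63 for ME1 and SCD, AL52 for FASN and THRSP, and AL44 for ELOVL6. Citrate lyase and synthase were alike in AL, with 5 of 6 pig pairs in the same order, as were synthase and THRSP (5) and ME1 and SCD (5), while ACLY and ELOVL6 shared 1 of 6. By counting error, 0 of 3 neighbouring AL pigs were apart for ME1, ELOVL6 and THRSP, and 1 of 3 for ACLY. In AL, the lack of a shared order thus cannot be told apart from an order unresolved at this depth.

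**Figure D3:**
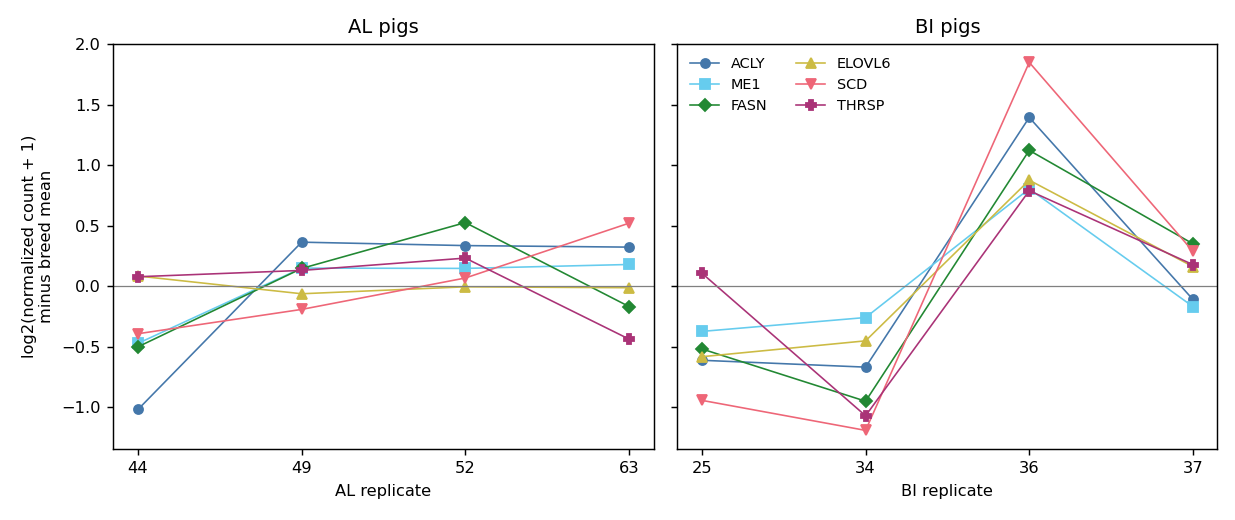
log2(normalized count + 1) of the 6 genes in each pig minus the mean of its breed (lines join the pigs of a gene and carry no order). In BI all genes peak in BI36 and stand next highest in BI37, whereas in AL the lines cross.

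Some neighbouring pigs could not be ordered at this depth. Exact 95% Poisson intervals of the reads counted on each gene, which cover counting error only, showed all 3 neighbouring pigs apart for FASN in both breeds. They showed none apart for ME1 in either breed, none in AL for ELOVL6 and THRSP, and 2 of 3 in each breed for SCD. The reads behind a value ran from 14 for ME1 in BI25 to 7624 for FASN in AL52. BI36 and BI37 were apart in 5 genes, the exception being ME1, where 27 and 15 reads had been counted. BI37 and the next lower BI pig were apart for FASN and SCD, but not for ACLY, ME1, ELOVL6 or THRSP. AL44 and the next lowest AL pig were apart for ACLY (24 reads against 69) and for FASN, but not for ME1 or SCD.

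The BI pigs also spread more widely. The SD of log2(normalized count + 1) was larger in BI than in AL for 6 of 6 genes. This also held for 69.2% of the 458 genes and 76.8% of those higher in AL. The median SD over the 6 genes was 0.85 in BI and 0.36 in AL. It was 0.48 and 0.34 over the 458 genes, and 0.48 and 0.29 over those higher in AL. From the lowest to the highest BI pig the normalized counts rose 4.47-fold for ACLY, 4.21-fold for FASN, 3.72-fold for THRSP, 2.80-fold for ELOVL6 and 2.38-fold for ME1. The AL pigs spanned 2.65-fold for ACLY, 2.04-fold for FASN, 1.60-fold for THRSP, 1.58-fold for ME1 and 1.11-fold for ELOVL6. BI36 had 40.4% of the AL mean for ME1, 50.5% for SCD, 56.2% for THRSP, 57.8% for FASN, 62.6% for ACLY and 72.5% for ELOVL6. The mean of the other 3 BI pigs was 10.1% of the AL mean for SCD, 16.6% for ACLY, 18.4% for ME1, 22.0% for FASN, 28.8% for THRSP and 32.8% for ELOVL6. BI36 thus stood between its breed mates and the AL mean in all 6 genes. Without it each log2 FC reached its highest leave-one-out value, from 1.63 for ELOVL6 and 1.86 for THRSP to 3.41 for SCD.

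Of the 15 adipocyte markers in the list used, 12 are listed with a mean and 3 had values per pig, FABP4 (the fatty acid binding protein of fat cells), LEP (leptin) and CEBPA (a transcription factor of fat cell differentiation). FABP4 was higher in AL without overlap, while LEP and CEBPA had higher means in AL but overlapped (exact permutation p = 0.057 for each). The summed level of the 3, most of it FABP4, was 1080 to 1501 normalized counts in AL and 523 to 755 in BI, so that these markers were present in every pig, and PLIN1 had an authors' mean of 1567 and ADIPOQ of 173. FABP4 was lowest in BI36 (317) among the BI pigs, which had 370, 414 and 641 otherwise, and it was 792 to 1045 in AL. LEP ran the other way in BI, highest in BI36 with 86.0 against 32.1, 30.9 and 24.2 in BI25, BI34 and BI37, and CEBPA was 149, 85.2, 120 and 90.0 in the 4 BI pigs in that order. Of other cell types, 1 of 14 skeletal muscle markers had values per pig (MYH7, 0.907 to 9.30 in AL and 4.72 to 40.5 in BI, lowest of the BI pigs in BI36). The 12 endothelial markers gave TIE1, lower in AL (mean 13.9 against 38.9 in BI), and EGFL7, higher in AL (2937 against 1578). Their summed level, most of it EGFL7, was 2164 to 3627 in AL and 1340 to 1962 in BI. The 12 fibroblast markers gave ELN (12.9 to 22.6 in AL, 19.2 to 87.2 in BI), and none of the 16 immune and 5 red blood cell markers had values per pig. The part of cell makeup in the differences of the 6 genes was not tested.

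Expressed relative to each of these 3 markers in the same pig, a comparison added after the values were seen, the place of BI36 depended on the marker. Relative to FABP4 the 6 genes were higher on average in AL but overlapped between the breeds. The log2 differences were 0.85 for ACLY, 0.95 for ME1, 0.76 for FASN, 0.23 for ELOVL6, 1.69 for SCD and 0.49 for THRSP, with exact permutation p between 0.11 and 0.66. For 5 genes BI36 was the only BI pig above an AL pig, and for THRSP BI25 (0.176) also exceeded AL63 (0.130). FASN stood at 4.44, 7.96, 9.15 and 4.85 times the FABP4 count in AL44, AL49, AL52 and AL63, and at 2.95, 1.95, 10.7 and 3.11 times in BI25, BI34, BI36 and BI37. For SCD the ratios were 0.524, 0.688, 0.729 and 0.855 in AL and 0.124, 0.0929, 1.02 and 0.170 in BI. By this measure BI36 lay above all 4 AL pigs for 5 genes, and above 3 of 4 for ME1. Relative to CEBPA or to LEP it lay above all 4 AL pigs for 0 of the 6 genes. It was still the highest BI pig for 6 of 6 relative to CEBPA, but for 0 of 6 relative to LEP. FASN stood at 30.9, 30.8, 31.4 and 18.4 times the CEBPA count in AL and at 7.32, 9.5, 28.4 and 22.2 times in BI. Relative to CEBPA the breeds did not overlap for ME1 (log2 difference 1.11), and relative to LEP for SCD (1.42, exact permutation p = 0.029 for each), and they overlapped for the other 5 genes in either case. The log2 difference of ELOVL6 relative to LEP was −0.04.

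**Figure D4:**
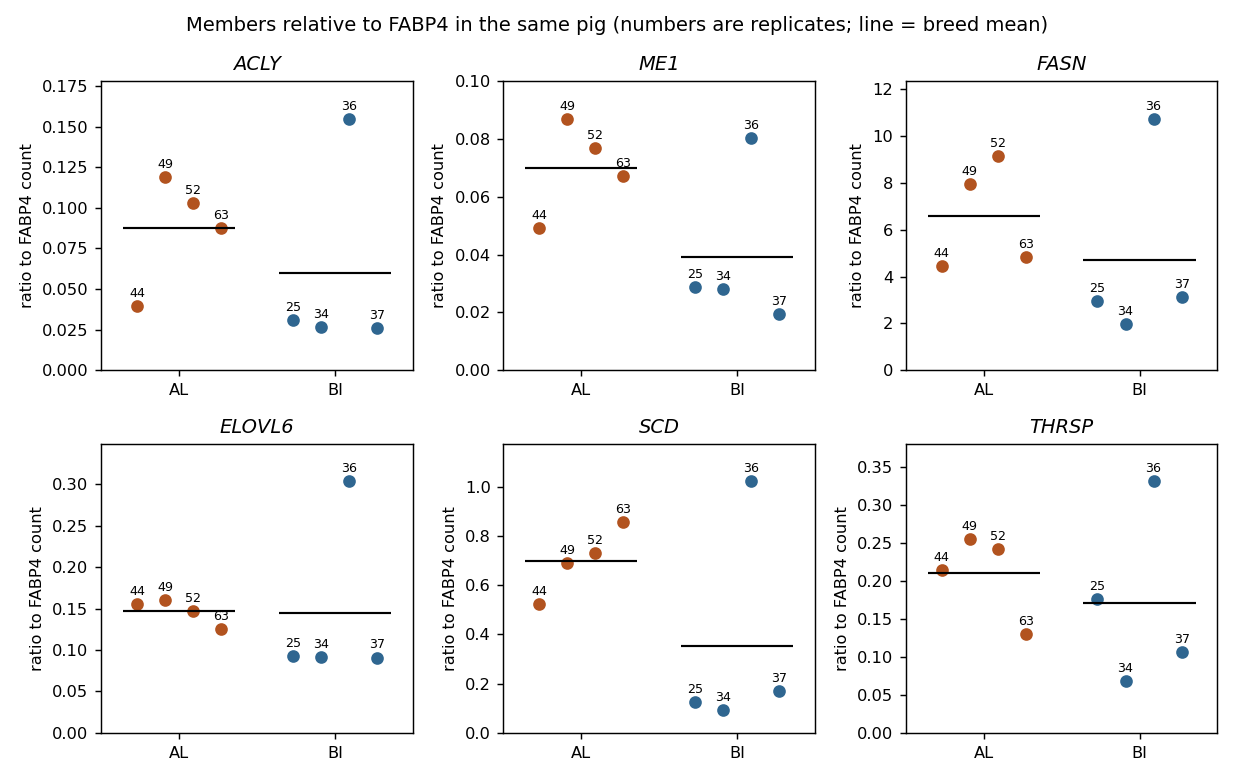
Normalized count of each of the 6 genes divided by that of FABP4 in the same pig (points, with the replicate number), with the mean of the 4 pigs of each breed (lines). BI36 is the highest BI pig in all 6 genes, as it was relative to CEBPA but in none relative to LEP. It exceeds all 4 AL pigs in each gene but ME1, and in no gene relative to LEP or CEBPA.

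Per kilobase of exon, the steps of the chain stood far apart. FASN had 735.5 ± 224 normalized counts per kb in AL and 227.9 ± 146 in BI (SD, n = 4 each), and was the first of the 6 genes in all 8 pigs. THRSP followed with 188 ± 35.6 per kb in AL and 67.1 ± 31.6 in BI, and SCD with 108 ± 30.8 and 21.7 ± 22.4. ELOVL6 had 25.1 ± 1.09 per kb in AL and 10.7 ± 5.38 in BI. The supply genes were the lowest, with 18.1 ± 3.58 and 4.32 ± 2.0 per kb for ME1 and 17.8 ± 6.48 and 4.99 ± 4.12 for ACLY. FASN thus exceeded ACLY 41.5-fold in AL and 45.7-fold in BI.

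Not all neighbours in this order differed beyond the spread between pigs. In AL the values per kb of FASN and THRSP, of SCD and ELOVL6 and of ELOVL6 and ME1 did not overlap, while those of THRSP and SCD and of ME1 and ACLY did. In BI each gene overlapped with the next. Within single pigs, THRSP was second in 7 of 8, SCD being second in AL63, and SCD took the third place in 6, the exceptions being AL63 and BI34, where THRSP and ELOVL6 held it. ACLY and ME1 shared the last places in every pig. By coding length in place of exon length, SCD was in place 2 and THRSP in place 3 in AL, and ME1 in place 5 and ACLY in place 6 in BI.

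The shares of the steps were alike between the breeds for FASN, which made up 66.5% of the summed level per kb of the 6 genes in AL (60.9% to 72.3% by pig) and 67.0% in BI (61.5% to 70.2%). SCD made up 10.2% in AL (7.74% to 15.2%) and 5.43% in BI (3.47% to 8.74%), and THRSP 17.7% in AL (13.9% to 23.7%) and 21.3% in BI (17.0% to 29.6%). The ranges of the breeds overlapped for all 3.

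**Figure D5:**
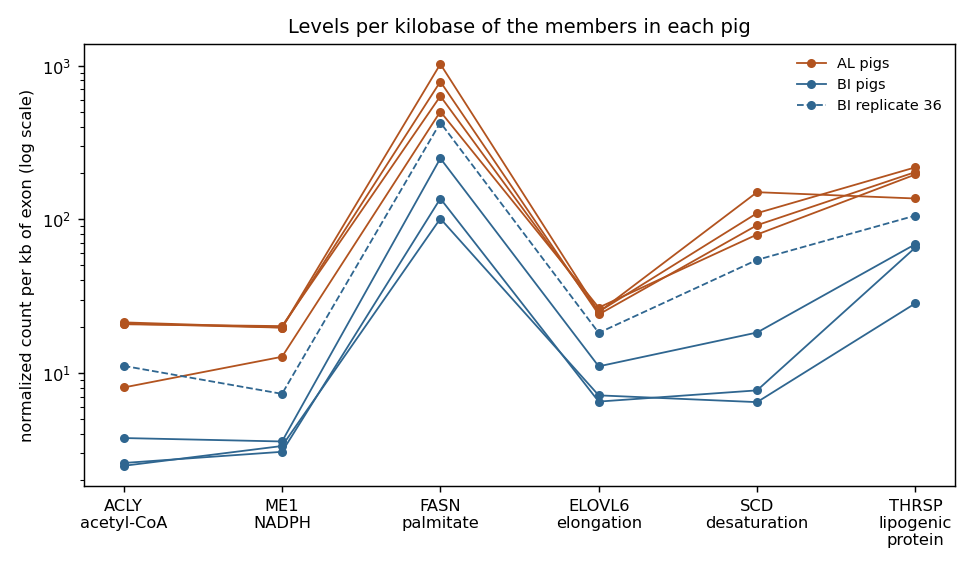
Normalized count per kilobase of merged exon (log scale) of the genes in order from acetyl-CoA and NADPH supply to elongation and desaturation, with THRSP last, in each pig (lines join the values of a pig, BI36 dashed). FASN is highest in all 8 pigs, and of the BI lines that of BI36 lies nearest to the AL lines.

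Among the 10710 genes, FASN was 92nd by the authors' mean over the 8 pigs, SCD 860th, THRSP 1550th, ELOVL6 1798th, ACLY 2558th and ME1 2952nd. The other genes of the pathway were read from lists by role with 105 genes, of which 88 are listed with a mean and 3 had values per pig. These 3 were TKT and TALDO1 of the pentose phosphate pathway, whose oxidative branch is the other source of NADPH, and FDFT1 (squalene synthase) of sterol synthesis. All 3 were higher in AL without overlap, as were 48.3% of the 458 genes, with log2 FC of 0.84 for TKT, 0.91 for TALDO1 and 1.08 for FDFT1 (exact permutation p = 0.029 for each, adjusted 0.036), each smaller than that of any of the 6 genes. No gene of the lists for citrate and malonyl-CoA supply, elongation and desaturation, regulators, or triacylglycerol assembly had values per pig.

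For the steps without values per pig, the authors' means give the level over both breeds together. ACACA (acetyl-CoA carboxylase), which makes the malonyl-CoA between ACLY and FASN, had an authors' mean of 101.5 normalized counts and 8.42 per kb, close to ACLY (11.4) and ME1 (11.2). SLC25A1, the mitochondrial citrate carrier, had 12.9 per kb. SREBF1, the gene of SREBP-1c, had 71.4 per kb, MLXIPL, which encodes ChREBP, 11.6, and MID1IP1, the paralogue and partner of THRSP, 7.13 against 127.6 for THRSP. Of the other fatty acid elongases, ELOVL1 had 32.5 and ELOVL5 5.35 per kb, against 17.9 for ELOVL6. These means have no error that can be given, and they do not tell the breeds apart.

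Levels of different genes could be compared only with a limit. Of the 89 genes of the pathway lists and of the set with a mean per kb, 6 stood above FASN, and 5 of these (FDFT1, TALDO1, ACAT2, DGAT1 and THRA) have an opposite-strand gene that shares exon bases or ends within 5 kb of their 3′ end. The same holds for 23 of the 77 list genes below FASN, among them ELOVL1 (CDC20) and SREBF1 (RAI1). Of the 6 genes of the set it holds for 1, THRSP. The libraries were stranded, but the strand setting of the counting is not given in the sources used here, and its part in these levels was not tested.

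Outside the set, the genes whose order of the pigs was most like the mean of the 6 genes were SLC16A11, LOC100525027, CT55, RAI1 and SURF2, out of 452 genes whose mean normalized count was 10 or more. SLC16A11, a monocarboxylate transporter, matched in 12 of the 12 pig pairs within breeds, the only gene to do so, and the other 4 matched in 11. The normalized counts of SLC16A11 were 87.4, 146, 192 and 101 in AL and 51.2, 33.0, 79.4 and 60 in BI, with AL52 and BI36 the highest of their breeds as for FASN. Its log2 FC was 1.22, and those of the other 4 lay between 0.76 for SURF2 and 1.71 for CT55. Of the 5, 4 have an opposite-strand neighbour, which for RAI1 is SREBF1, at 208 bases between the 3′ ends. The likeness was read from 12 pig pairs and is a description.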

How the data were processed

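Dorsal subcutaneous fat RNA of 4 AL and 4 BI pigs had been sequenced in stranded paired-end libraries of mRNA, with a library for each pig. According to the submitters' processing notes and the paper's methods, the authors trimmed reads with Trim Galore 0.5.0, aligned them to Sscrofa11.1 with HISAT2 2.1.0, handled alignments with SAMtools 1.9, counted reads per gene with HTSeq 0.11.1 and normalized and filtered the counts in DESeq2. The signal deposited by the authors for each pig is the gene count divided by the DESeq2 size factor of the pig, for 458 genes called different between the breeds, and for 10710 genes a mean over the pigs is deposited. The authors' fold changes and p-values were not used. No batch is given in the labels. Some results for single genes are left out of the text.

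A search for the value of 1 read in each pig found all values to be whole multiples of it (tolerance 0.05 reads), which gave size factors of 0.675 to 1.10 in AL and 1.06 to 1.46 in BI and 359708 to 883622 reads per pig on the 458 genes. This is no full library depth. The reads recovered in this way were used in no test between the breeds, only for exact 95% Poisson intervals, which cover counting error and not the difference between animals.

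The log2 FC is the difference of the breed means of log2(normalized count + 1), which understates the change of low counts. The test was the exact permutation of breed labels, two-sided, over 70 splits, with Benjamini-Hochberg adjustment over the 458 genes, and a gene was called where the breeds did not overlap. Ratios of genes were tested likewise and adjusted over 15 pairs. Exon lengths, neighbours and upstream windows came from the RefSeq annotation of Sscrofa11.1, matched by symbol, and all 6 genes matched. Named were the 6 genes, genes with values per pig among lists by role, others of these lists by their authors' mean (chosen after their values were seen), and the 5 genes whose order of pigs was most like the mean of the 6. The 6 genes and all lists were chosen with earlier results of these data known. Alternatives were pseudocounts of 0.1 and 10, rescaling by median of ratios or upper quartile, a minimum mean, limma, coding length, leaving out each pig, and the ratio to FABP4, LEP or CEBPA. The calculations were tested on simulated data. Software was limma 3.58.1 in R 4.3.3, and Matplotlib 3.10.9, SciPy 1.17.1, pandas 2.3.3 and NumPy 2.4.6 in Python 3.11.15.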

Additional observations from a re-analysis of the deposited data

Results flagged for a closer look

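Among 42 groups of 4 pigs, comprising the 6 genes and their 15 ratios in each breed, 7 had a pig whose distance to its nearest breed mate took most of the range of the group (Dixon's criterion), where chance gives about 1 in 20. These groups share pigs and genes and are not independent. The criterion was applied to normalized counts for the genes and to log2 values for the ratios. The genes were not examined on the log2 scale, where a high pig stands less far apart, and the chance given holds for normally distributed values. AL44 was the low pig for ACLY, with 35.55 normalized counts, and for ME1, with 44.44. BI36 was the high pig for ACLY, with 49.13, and for ME1, with 25.51. In the ratios, AL44 had the highest log2 ratio of ME1 to ACLY in AL, 0.31, where the other 3 AL pigs lay between −0.45 and −0.38. It also had the lowest AL log2 ratio of ACLY to ELOVL6, −1.96, and of ME1 to ELOVL6, −1.64, ELOVL6 being the gene in which AL44 was the highest AL pig. The reads behind ACLY and ME1 in AL44 were 24 and 30.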

How the results depend on the processing

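All 6 log2 FC stayed positive under every alternative run, except ELOVL6 relative to LEP (−0.04). Rescaling by the median of ratios over the 458 genes gave overlapping breeds for FASN (1.35), ELOVL6 (0.83) and THRSP (1.08), left 2 of the 6 genes without overlap and reduced the genes higher in AL without overlap to 102. The upper quartile gave 1.22, 0.70 and 0.95 for these 3 genes, which overlapped, and counts of 2 and 60. Both rest on genes called different, so that part of the shift follows from their construction. Relative to FABP4, ME1 (0.95), FASN (0.76), ELOVL6 (0.23), SCD (1.69) and THRSP (0.49) overlapped. So did FASN (0.92), ELOVL6 (0.39), SCD (1.84) and THRSP (0.65) relative to CEBPA, and ME1 (0.69), FASN (0.49), ELOVL6 and THRSP (0.22) relative to LEP. Relative to LEP, BI36 was the highest BI pig for 0 of the 6 genes and AL44 the lowest AL pig for 0, and relative to CEBPA AL44 was the lowest for 1. With limma ACLY passed (1.96), as did the other 5, among 262 genes called higher in AL and 193 higher in BI of the 458. A minimum mean of 50 normalized counts left 65 genes higher in BI without overlap, from fewer genes tested. Of the 15 ratios, 2 did not overlap with a pseudocount of 0.1. With a pseudocount of 10 the ratios of ACLY to FASN (−0.32) and of ME1 to FASN (−0.29) changed sign, neither passing the test. By coding length, SCD was 2nd and THRSP 3rd in AL, and ACLY 6th and ME1 5th in BI.

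Leaving out 1 pig at a time, the log2 FC ran from 1.73 to 2.42 for ACLY, 1.93 to 2.32 for ME1, 1.54 to 2.24 for FASN, 1.14 to 1.63 for ELOVL6, 2.39 to 3.41 for SCD and 1.24 to 1.86 for THRSP, and 5 to 6 of the genes did not overlap. ACLY did not overlap without AL44 or without BI36, the only pigs that crossed. From 1 to 4 of the 15 ratios did not overlap, 4 of them without AL44. The difference in the ratio of ME1 to ACLY ran from −0.10 without BI36 to 0.23, and that of ACLY to FASN from −0.07 without AL63 to 0.27. The genes without overlap numbered 222 to 245 higher in AL and 144 to 166 higher in BI. Other than where a construction is named, the cause was not tested.

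No paired analysis was possible because the AL and BI pigs share no replicate number. Planned count tests (edgeR, DESeq2 and TMM scaling) were not run. The search described above found whole reads in all 8 pigs, but a second, stricter check of the step of 1 read accepted it in 3 of them, having too few low values in the others or missing the step. The number of reads limits the order of the pigs for ME1 in both breeds, for ELOVL6 and THRSP in AL and for most neighbours of ACLY. It also limits the second place of BI37 in all genes but FASN and SCD, and 4 pigs a breed limit all comparisons.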
